A study of Homo sapiens with 2 samples.

Results

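The genes described here encode enzymes that build and trim the sugar chains of glycoproteins and glycolipids, most of them in the Golgi apparatus: mannosidases (MAN1, MAN2), branching N-acetylglucosaminyltransferases (MGAT), polypeptide N-acetylgalactosaminyltransferases (GALNT), galactosyltransferases (B3GALT, B4GALT), further N-acetylglucosaminyltransferases (B3GNT), sialyltransferases (ST3GAL, ST6GAL, ST6GALNAC) and fucosyltransferases (FUT). The rule that picks them reads the gene symbol, by these family prefixes, and no level or fold. The prefixes matched 81 of the 20263 genes in the deposited transcript table, with 480 of its 95139 transcripts. Of these 81 genes, 61 had a mean of at least 1 FPKM (fragments per kilobase of transcript, scaled to sequencing depth) over both libraries, as had 11921 genes in all. The prefixes also matched the lysosomal mannosidases MAN2B1 and MAN2B2 and the cytosolic MAN2C1, which are not Golgi enzymes.

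The study compared cells of H9, a widely used line of human embryonic stem cells, 48 h after treatment with an siRNA against HNRNPA1 (siHNRNPA1) and with a control siRNA (sicontrol). HNRNPA1 encodes an abundant nuclear RNA-binding protein that acts in splicing and other steps of RNA processing. Each condition had 1 library made from total RNA with an mRNA library kit, so no difference below has a replicate check, an SD or a p-value. The intervals given cover counting error only.

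N-glycans are attached to proteins in the endoplasmic reticulum as a preformed chain rich in mannose, which glucosidases and class I mannosidases trim. In the Golgi, MGAT1 adds a first N-acetylglucosamine, mannosidase II removes further mannoses, and other MGAT enzymes start the remaining branches, which galactosyl-, sialyl- and fucosyltransferases then extend and cap. Mucin-type O-glycosylation is begun separately, by the GALNT family, which adds N-acetylgalactosamine directly to serine or threonine. Fucosylated and sialylated glycans carry many of the cell surface epitopes by which human pluripotent stem cells are recognised.

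HNRNPA1 itself stood at 179.9 FPKM after its siRNA and 663 FPKM after the control siRNA, 27.1% of the control level. The libraries held 28147828 and 26680342 estimated counts. Transcripts of 13 mitochondrial genes took 18.1% of TPM (a length-scaled share of all transcripts) after siHNRNPA1 and 28.2% in the control library. The pluripotency markers POU5F1 (1355 and 864 FPKM, siHNRNPA1 first), LIN28A (307 and 309 FPKM) and TDGF1 (150 and 160 FPKM) were abundant in both libraries, and 3 of the 7 pluripotency markers checked were at least 2-fold lower in the siHNRNPA1 library: PODXL (102 and 312 FPKM), DPPA4 (119 and 346 FPKM) and SOX2 (58.3 and 126 FPKM). Of the fibroblast markers, COL3A1, DCN and LUM had 0 counts in both, POSTN had 3 and 23 counts, and COL1A1 (25.0 and 14.5 FPKM), COL1A2 (8.38 and 13.3 FPKM) and THY1 (181 and 233 FPKM) were within 2-fold. The neural marker NES (127 and 56.0 FPKM) was higher in the siHNRNPA1 library and the mesoderm marker KDR (8.02 and 32.0 FPKM) was lower. The other markers of these lineages had few counts, with 0 and 2 for PAX6, 14 and 10 for SOX1 and 33 and 30 for MIXL1. Of the trophoblast markers, KRT7 was 4.10 and 1.66 FPKM, within 2-fold on the scale used here, and CDX2 and GATA3 had 14 counts or fewer. SOX17 and GATA6 had 0 counts in both libraries, and FOXA2 had 123 and 0. The part of cell composition in the folds was not tested. In RNA from whole cultures, fewer cells of a type and less RNA per cell cannot be told apart.

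Among the 61 enzymes, 19 stood 2-fold or more below control after siHNRNPA1 and 4 stood 2-fold or more above it. Folds are log2 ratios of siHNRNPA1 over control after 1 FPKM was added to each level, which understates the difference for genes of low level. Some of these genes passed the filter on the mean only through the library where they are high. Below 1 FPKM after siHNRNPA1 were MAN1A2, MAN2A1, GALNT3, GALNT13, ST3GAL6, ST6GALNAC3, ST6GAL2, B3GNT5, B4GALT6 and FUT10. B3GNT8 was below 1 FPKM in the control library. The same filter was applied to all genes. The 19 lower genes were 31.1% of the enzymes, beside 21.9% of all genes, and the 4 higher genes were 6.56%, beside 12.4% of all genes. The median log2 fold was -0.37 for the enzymes and -0.13 for all genes, and 42 of the 61 enzymes (68.9%) were below 0, as were 54.8% of all genes. Summed over all 81 genes, the level was 526 FPKM after siHNRNPA1 and 563 FPKM in the control library.

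**Figure D1:**
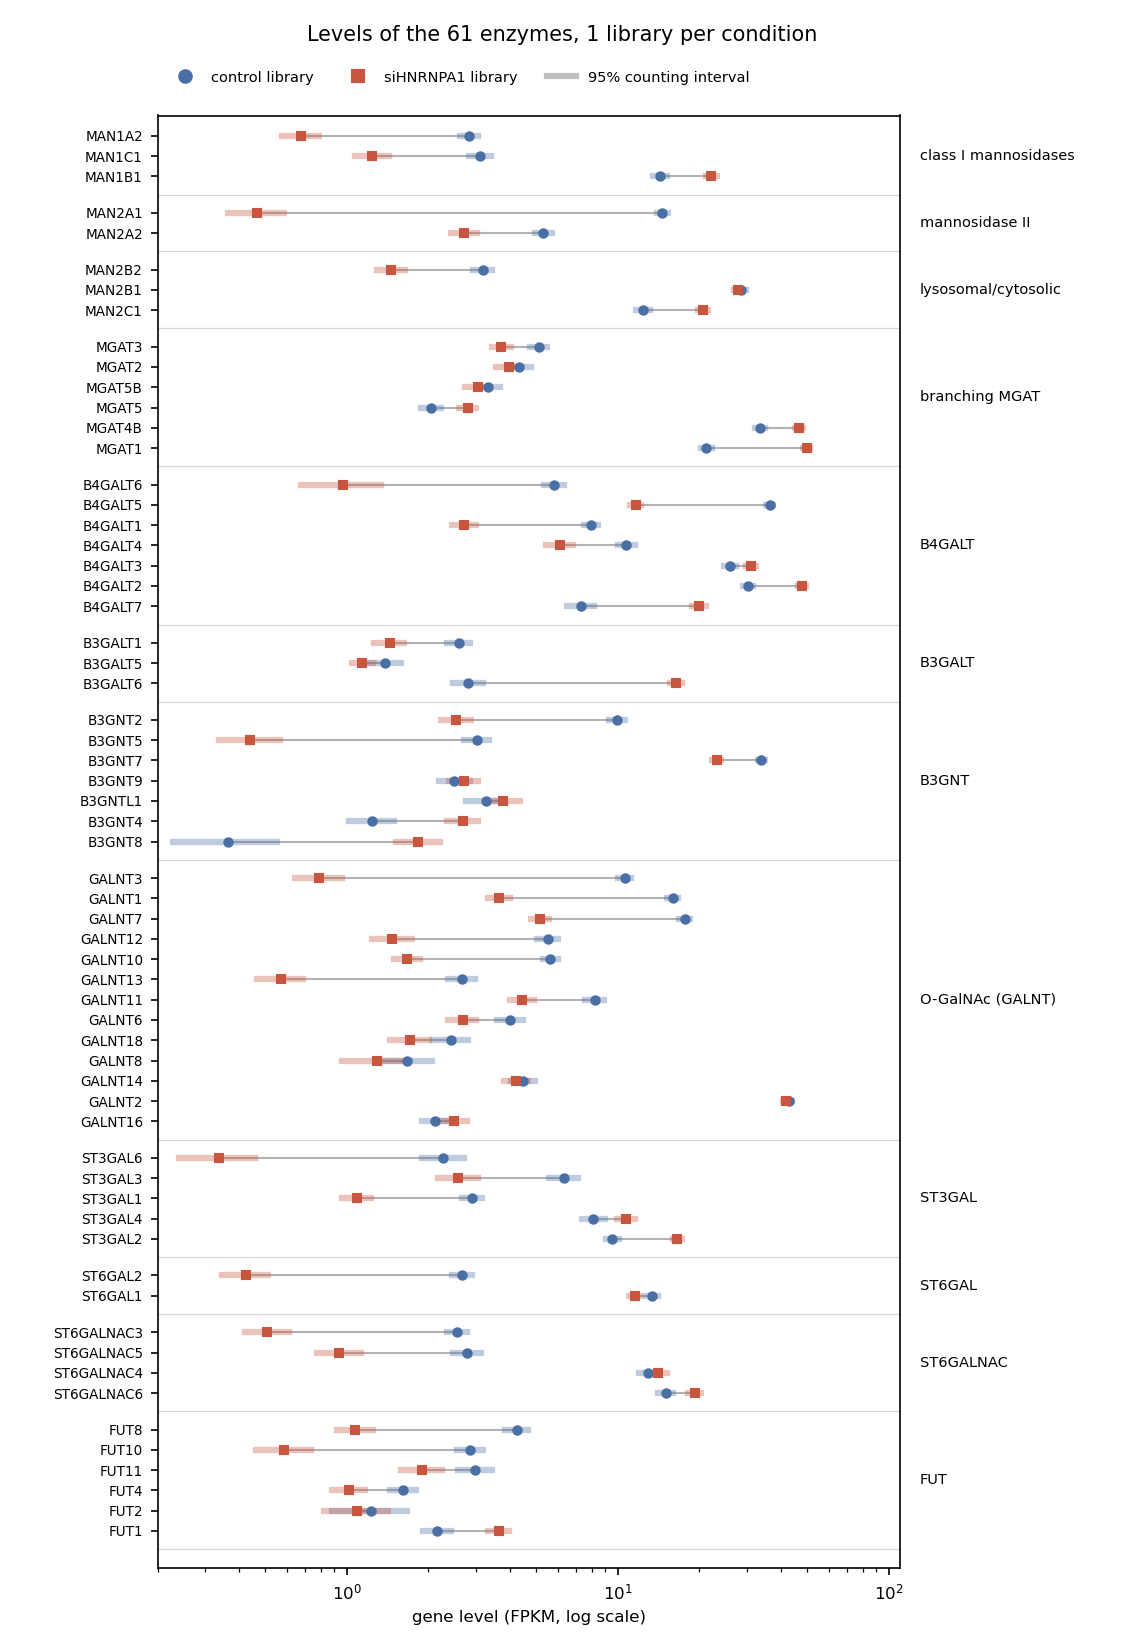
Gene level in FPKM (log axis) of the 61 enzymes with a mean of at least 1 FPKM, grouped by enzyme step; circles are the control library, squares the siHNRNPA1 library, and bands the 95% counting intervals. MAN2A1 (0.464 against 14.6 FPKM) and GALNT3 (0.790 against 10.6 FPKM) have the widest gaps toward lower levels, and B3GALT6 (16.4 against 2.80 FPKM) the widest toward higher levels on the log2 scale used in the text.

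Mannosidase II, the enzyme that removes mannoses after MGAT1 has acted, is encoded by 2 paralogs, and both were lower in the siHNRNPA1 library. MAN2A1 stood at 0.464 FPKM (95% exact Poisson interval 0.363 to 0.585, 72 estimated counts) after siHNRNPA1 and at 14.6 FPKM (14.0 to 15.3, 2114 counts) in the control library. Its level was 3.18% of control, a log2 fold of -3.41, and 0.0503% of all genes had a lower fold. MAN2A1 lies on the plus strand of chromosome 5, from 109689366 to 109867178 in the table's coordinates (GRCh38). MAN2A2 stood at 2.72 FPKM after siHNRNPA1 and 5.30 FPKM in the control library, a log2 fold of -0.76, within the 2-fold limit. The summed mannosidase II level was 3.18 FPKM against 19.9 FPKM, and the share of MAN2A1 in that sum was 14.6% against 73.4%. The less affected paralog was thus the more abundant one in the siHNRNPA1 library and the less abundant one in the control library.

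Coding sequences of 3 pairs of paralogs with unlike folds are shown, because base composition moved with the fold across all the enzymes, as given further below. The pairs were chosen after their values were seen. In all 3, the gene with the lower fold has less G and C at the third codon position, but not every pair of paralogs does. ST6GAL2 (log2 fold -1.36) has 68.8% there and ST6GAL1 (-0.19) 64.8%. MGAT5B (-0.10) has 86.5% and MGAT5 (0.31) 55.2%. Each stretch is 90 coding bases of the most abundant transcript (GENCODE 29), taken where an alignment guided by the protein sequence has the most codons for the same residue, and capitals mark the bases that differ within the pair. The first pair is mannosidase II, at coding bases 1036 to 1125 of both genes.
MAN2A1: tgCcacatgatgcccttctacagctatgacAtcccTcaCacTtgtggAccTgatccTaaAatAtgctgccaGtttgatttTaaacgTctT
MAN2A2: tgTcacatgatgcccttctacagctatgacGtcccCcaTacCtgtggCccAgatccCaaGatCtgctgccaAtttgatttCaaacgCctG
Of the 14 differing bases, 13 lie at the third position of a codon, and at 9 of those MAN2A1 has A or T where MAN2A2 has G or C, with 3 the other way. Over all 1138 aligned codons, 54.7% encode the same residue in both genes. At 387 of the codons the residue is the same and the codon is not, and there the third base is A or T in MAN2A1 and G or C in MAN2A2 at 250 and the reverse at 48. G and C make up 39.1% of bases at the third codon position in MAN2A1 and 75.0% in MAN2A2.

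Class I mannosidases, which trim the chain before MGAT1 acts, were mixed. MAN1A2 was 0.676 FPKM with siHNRNPA1 and 2.83 FPKM in the control (log2 fold -1.19), and MAN1C1 was 1.24 and 3.10 FPKM (-0.87). MAN1B1, which acts in quality control of misfolded glycoproteins, was 22.2 and 14.3 FPKM (0.59), so its share of the summed class I level was 91.4% after siHNRNPA1 and 65.0% in the control library. MAN1A1 fell just outside the limit on low values, with a mean of 0.981 FPKM, and stood at 0.164 and 1.80 FPKM. The summed level of the family, 24.2 and 22.1 FPKM, differed little because the most abundant member was higher and the others lower. Of the lysosomal and cytosolic enzymes, none was past 2-fold: MAN2B1 was 27.8 and 28.6 FPKM, MAN2B2 1.46 and 3.17 FPKM, and MAN2C1 20.7 and 12.4 FPKM.

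Of the 6 branching enzymes with a mean of at least 1 FPKM, 1 was past 2-fold, and it was higher. Of all genes, 12.4% were at least 2-fold higher and 21.9% at least 2-fold lower. MGAT1, which adds the first branch and so opens the way to all complex and hybrid N-glycans, stood at 49.8 FPKM (5042 counts) after siHNRNPA1 and 21.2 FPKM (1976 counts) in the control library, a log2 fold of 1.19. MGAT1 and mannosidase II act one after the other, and the levels of MGAT1 and MAN2A1 lay on opposite sides. MGAT2, which starts the next branch, was 3.95 and 4.32 FPKM. MGAT4B, which with MGAT5 adds the outer branches, was 46.6 and 33.4 FPKM, and MGAT5 was 2.79 and 2.05 FPKM. MGAT3, which adds the bisecting residue, was 3.71 and 5.10 FPKM, and MGAT5B was 3.04 and 3.33 FPKM. The summed MGAT level was 110 FPKM against 69.8 FPKM, and MGAT1 and MGAT4B made up most of it in both libraries. Less the median fold of genes nearest in level, GC content and length, described further below, MGAT1 (0.83) was within 2-fold. MGAT5, with a log2 fold of 0.31 before that subtraction, was past 2-fold on the higher side after it (1.26).

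The GALNT family, which starts mucin-type O-glycans, had 6 of 13 members past 2-fold on the lower side and none on the higher. The shares of all genes were 21.9% and 12.4%. GALNT3 stood at 0.790 FPKM (102 counts) after siHNRNPA1 and 10.6 FPKM (1225 counts) in the control library, 7.45% of control and a log2 fold of -2.70. GALNT3 is known for glycosylating the phosphate-regulating hormone FGF23. GALNT1 was 3.64 and 16.0 FPKM (-1.87), and GALNT7, which prefers peptides that already carry a sugar, was 5.16 and 17.6 FPKM (-1.60). GALNT12 was 1.47 and 5.51 FPKM, GALNT10 1.67 and 5.64 FPKM, and GALNT13 0.571 and 2.66 FPKM, with log2 folds from -1.40 to -1.22. The median log2 fold of the 13 genes was -0.76. After subtraction of nearest genes it was -0.32, and 1 of the 13, GALNT3 (-1.57), was past 2-fold.

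GALNT2, the most abundant member in both libraries, was 41.9 FPKM with siHNRNPA1 and 43.0 FPKM in the control (-0.04). Its share of the summed GALNT level was therefore 57.4% against 34.5%, while the sum was 72.9 FPKM against 124.5 FPKM. The other 6 members had log2 folds from -0.76 (GALNT11, 4.44 and 8.21 FPKM) to 0.16 (GALNT16, 2.48 and 2.12 FPKM). They include GALNT6, at 2.67 and 4.0 FPKM, a close paralog of GALNT3. Coding bases 526 to 615 of GALNT3 and 502 to 591 of GALNT6 are shown for the same reason as the mannosidases.
GALNT3: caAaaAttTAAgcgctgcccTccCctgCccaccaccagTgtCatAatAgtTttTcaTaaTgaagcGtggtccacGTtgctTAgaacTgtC
GALNT6: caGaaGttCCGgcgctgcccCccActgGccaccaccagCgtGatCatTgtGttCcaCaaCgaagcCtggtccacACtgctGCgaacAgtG
Here 18 of 23 differing bases lie at the third position, and at 11 of them GALNT3 has A or T where GALNT6 has G or C, with 2 the other way. Over 617 aligned codons, of which 65.6% encode the same residue, the corresponding numbers are 183 and 18. G and C make up 32.7% of bases at the third position in GALNT3 and 74.4% in GALNT6.

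**Figure D2:**
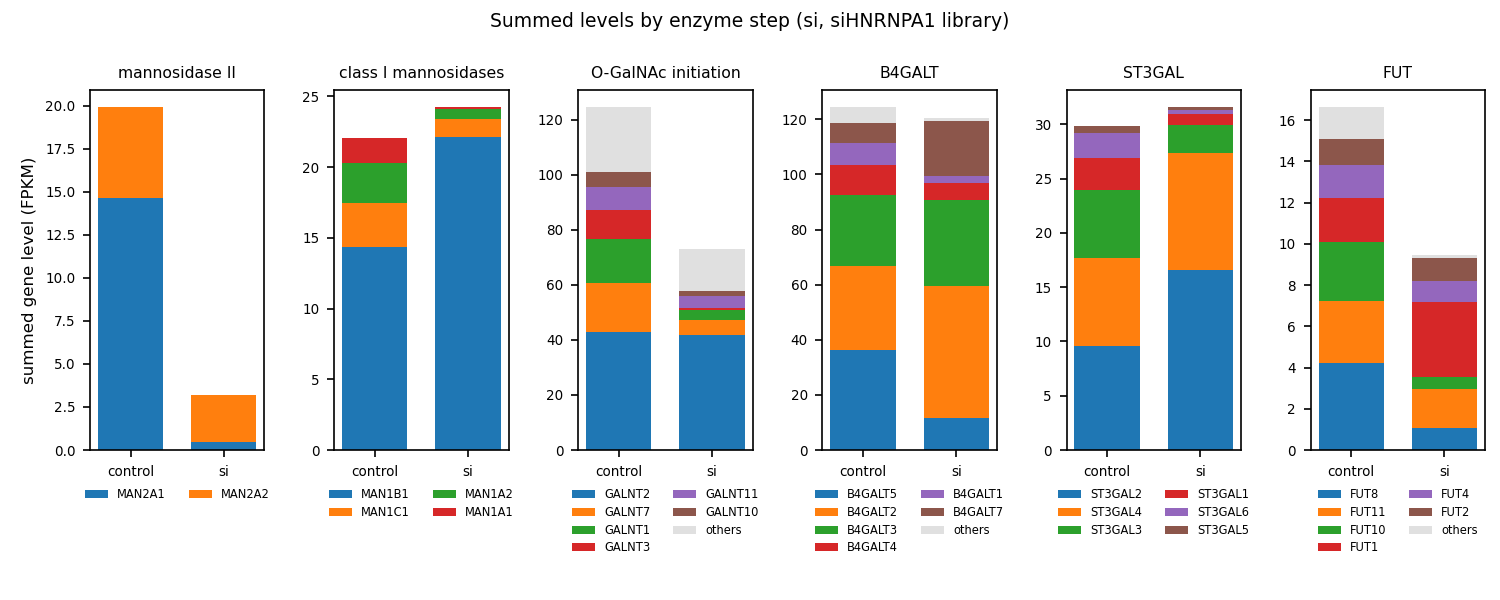
Summed gene level in FPKM (bars start at 0) of 6 enzyme steps in the control and the siHNRNPA1 library, with colours for the single genes. MAN2A1 makes up 73.4% of mannosidase II in the control library and 14.6% in the siHNRNPA1 library, and GALNT2 makes up 34.5% and 57.4% of the GALNT sum.

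B4GALT enzymes transfer galactose in beta-1,4 linkage, and their summed level, 120.4 FPKM after siHNRNPA1 and 124.4 FPKM in the control library, covered opposite differences among members. B4GALT5, a lactosylceramide synthase, was 11.6 FPKM against 36.3 FPKM (log2 fold -1.56), and its paralog B4GALT6, which makes the same glycolipid, was 0.964 against 5.83 FPKM (-1.80). In the siHNRNPA1 library, 78.5% of the B4GALT6 level came from B4GALT6-205, a transcript of 339 bases with 9 of the gene's 36 counts. B4GALT1, the main galactosyltransferase of N-glycans in many tissues, was 2.70 FPKM (375 counts) against 7.98 FPKM (1043 counts), a log2 fold of -1.28. B4GALT2 was 48.0 against 30.3 FPKM (0.65), B4GALT3 31.1 against 26.0 FPKM (0.25) and B4GALT4 6.12 against 10.8 FPKM (-0.72). B4GALT5 therefore made up 29.2% of the family sum in the control library and 9.65% in the siHNRNPA1 library, and B4GALT2 24.3% and 39.8%. The pair B4GALT1 and B4GALT2, at coding bases 853 to 942 and 757 to 846, differs less in base composition over the whole coding sequence, with G and C at 64.8% and 77.2% of bases at the third position.
B4GALT1: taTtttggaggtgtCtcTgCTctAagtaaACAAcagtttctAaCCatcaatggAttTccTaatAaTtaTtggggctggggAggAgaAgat
B4GALT2: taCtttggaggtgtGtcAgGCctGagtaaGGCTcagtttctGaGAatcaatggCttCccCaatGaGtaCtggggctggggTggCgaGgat
Of 22 differing bases, 17 lie at the third position, and B4GALT1 has A or T against G or C at 12 of them, with 1 the other way. Over 365 aligned codons, of which 56.7% encode the same residue, these numbers are 53 and 17. The stretch is not typical of B4GALT1 in composition, with 38.9% G and C against 56.3% over its coding sequence.

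B4GALT7 and B3GALT6, which add both galactoses of the linker that joins glycosaminoglycan chains to proteoglycans, were the 2 galactosyltransferases at least 2-fold higher. B3GALT6 stood at 16.4 FPKM (1516 counts) after siHNRNPA1 and 2.80 FPKM (243 counts) in the control library, a log2 fold of 2.19. B4GALT7 stood at 19.9 FPKM (1008 counts) and 7.29 FPKM (296 counts), a log2 fold of 1.34. The next linker enzyme, the glucuronyltransferase B3GAT3, was also past 2-fold higher, with a log2 fold of 1.22, whereas the xylosyltransferase XYLT1 (-1.26) and the xylose phosphatase PXYLP1 (-1.54), which act on the linker's first sugar, were lower. XYLT2 was within 2-fold (-0.31). Less the median fold of 100 genes nearest in level, GC content and length, as described further below, B3GAT3 (0.44), XYLT1 (-0.55) and PXYLP1 (-0.94) were within 2-fold, as was B4GALT7 (0.46), while B3GALT6 was not (1.58). The linker enzymes were set side by side after their values were seen. Of the other B3GALT genes, B3GALT1 was 1.44 and 2.59 FPKM. B3GALT5 was 1.14 and 1.38 FPKM, but 502 and 198 estimated counts, so its direction depends on the measure.

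The B3GNT genes had 2 of 7 members past 2-fold on the lower side and 1 on the higher, beside 21.9% and 12.4% of all genes. After subtraction of nearest genes, 0 were past 2-fold in either direction. B3GNT2, the main enzyme that extends poly-N-acetyllactosamine chains, was 2.53 FPKM against 9.92 FPKM in the control library (log2 fold -1.63). B3GNT5, which starts lacto- and neolacto-series glycolipids, was 0.439 against 3.01 FPKM (-1.48). B3GNT8 was 1.83 against 0.365 FPKM (1.05), from 115 and 22 counts, and its log2 ratio of estimated counts, 2.31, had the widest counting interval of the 61 enzymes (95% interval 1.64 to 3.04). The most abundant member, B3GNT7, was 23.2 against 33.9 FPKM (-0.53). B3GNT4 was 2.68 against 1.24 FPKM (0.72), and B3GNT9 and the related B3GNTL1 had log2 folds of 0.08 and 0.17.

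Sialyltransferases cap chains with sialic acid, and 4 of the 11 with a mean of at least 1 FPKM lay past 2-fold on the lower side and none on the higher. Of all genes, 21.9% and 12.4% did. After subtraction of nearest genes, ST3GAL3 alone was past 2-fold. ST3GAL6 was 0.336 FPKM against 2.27 FPKM in the control library (log2 fold -1.29), ST6GAL2 0.423 against 2.66 FPKM (-1.36), and ST6GALNAC3 0.508 against 2.55 FPKM (-1.24). ST3GAL3 was 2.58 against 6.31 FPKM (-1.03), the lower gene nearest to the 2-fold limit on the lower side. Just outside that limit were ST6GALNAC5 (0.939 against 2.78 FPKM, -0.96) and ST3GAL1 (1.09 against 2.90 FPKM, -0.90). The more abundant sialyltransferases differed less. ST3GAL2, which acts on gangliosides and on O-glycans and is known for making the SSEA-4 antigen of pluripotent cells, was 16.6 against 9.55 FPKM (0.74), and ST3GAL4 was 10.7 against 8.13 FPKM (0.36). ST6GALNAC6 was 19.2 against 15.0 FPKM (0.34) and ST6GALNAC4 14.1 against 13.0 FPKM (0.11). ST6GAL1, the main enzyme of alpha-2,6 sialylation of N-glycans, was 11.6 against 13.4 FPKM but 1647 against 1336 counts.

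Of 6 fucosyltransferases, 2 were at least 2-fold lower, beside 21.9% of all genes, and 0 were after subtraction of nearest genes. FUT8, the only enzyme known to add core fucose to N-glycans, was 1.08 FPKM against 4.24 FPKM in the control library (log2 fold -1.34), and FUT10 was 0.587 against 2.85 FPKM (-1.28). FUT1, which makes the H type antigens found on pluripotent stem cells, was 3.64 against 2.15 FPKM (0.56). FUT8 made up 25.5% of the summed FUT level in the control library and 11.4% in the siHNRNPA1 library, and FUT1 12.9% and 38.4%. FUT2, FUT4 and FUT11 were within 2-fold, with log2 folds of -0.09, -0.37 and -0.46.

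The remaining 20 genes had means below 1 FPKM. Of these, 9 had 0 counts in both libraries, which allows up to 3 counts in each: MGAT4D, GALNT5, GALNT15, ST6GALNAC1, ST6GALNAC2, B3GNT6, B3GALT2, FUT6 and FUT7. Nearest to the limit from below, beside MAN1A1, were B3GALT4 (mean 0.932 FPKM) and B3GNT3 (0.847 FPKM). Nearest from above were B3GNT8 (1.10 FPKM), FUT2 (1.16 FPKM) and B3GALT5 (1.26 FPKM). FUT9, which makes the SSEA-1 antigen, was 0.150 against 0.909 FPKM.

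Base composition moved with the fold across the enzymes. The most abundant transcript had a median GC content of 41.4% (range 35.8 to 55.6%) in the 19 lower genes, 56.8% (39.2 to 64.8%) in the 38 genes within 2-fold and 63.1% (59.4 to 65.5%) in the 4 higher genes. All genes had a median of 50.6%. Over the 61 enzymes, Spearman's rho between GC content and log2 fold was 0.79. Over all 11916 genes with a matched transcript it was 0.58. Transcript length went the other way, with rho of -0.39 over the enzymes and -0.46 over all genes, and median lengths of 4201, 3065.5 and 2328.5 bases in the lower, within-limit and higher genes. These correlations are across genes of the same pair of libraries, and genes are not independent replicates. The part that base composition and length have in the folds was not tested.

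**Figure D3:**
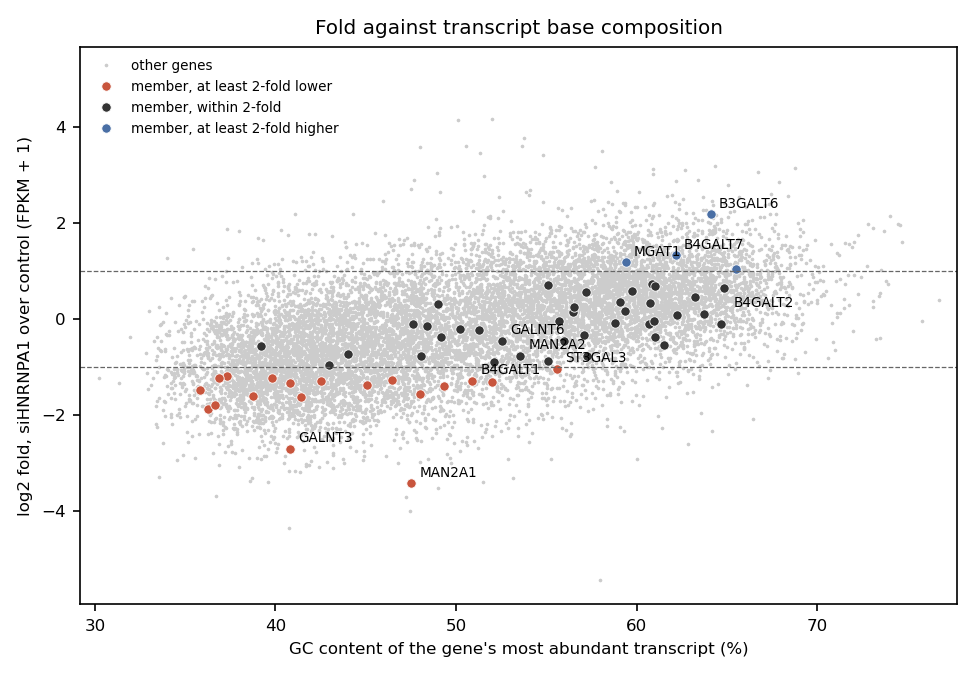
Log2 fold, siHNRNPA1 over control, against the GC content (%) of the most abundant transcript, with 1 point a gene; coloured points are the 61 enzymes and dashed lines mark 2-fold. The fold is higher at higher GC content among the enzymes (rho 0.79) and among all genes (0.58), and MAN2A1 lies far below genes of like GC content.

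The same order was seen within coding sequence and not in the bases before the first start listed for each gene. Over 59 enzymes with a coding sequence, rho with the fold was 0.69 for coding GC content and 0.65 for the third codon position, beside 0.50 and 0.50 over 11394 genes. The median GC content at the third position was 42.9% in the lower, 75.3% in the within-limit and 83.6% in the higher genes, and B3GALT6 had 97.0%. For the 250 bases before the first start listed in RefSeq (GRCh38.p14), which 48 enzymes have, rho was -0.10, and over 9295 genes it was -0.0012. Many genes have several starts, and the listed one need not be that of the transcript measured here. These values therefore do not settle how composition before the start in use relates to the fold. Promoters of a lower gene, B4GALT5, and of a gene within 2-fold, ST6GALNAC4, are shown, chosen by fold and not by base composition. They are the lowest and the highest in fold of 6 enzymes with a single listed start and a window outside the gene. Capitals mark the GC box, GGGCGG or its reverse complement CCGCCC. B4GALT5 is at chr20:49713879-49714128 and ST6GALNAC4 at chr9:127917042-127917291, both minus strand.
B4GALT5: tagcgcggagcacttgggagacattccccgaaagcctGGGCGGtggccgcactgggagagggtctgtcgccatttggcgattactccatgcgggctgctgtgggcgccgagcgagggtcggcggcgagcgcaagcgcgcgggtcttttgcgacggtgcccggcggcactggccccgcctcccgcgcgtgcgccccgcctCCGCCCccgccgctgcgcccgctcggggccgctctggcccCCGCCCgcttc
ST6GALNAC4: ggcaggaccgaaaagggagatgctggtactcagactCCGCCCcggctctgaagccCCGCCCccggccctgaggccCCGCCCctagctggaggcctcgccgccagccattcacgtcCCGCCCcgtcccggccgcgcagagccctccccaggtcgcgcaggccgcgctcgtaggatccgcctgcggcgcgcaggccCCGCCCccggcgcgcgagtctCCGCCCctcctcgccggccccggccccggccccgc
The first holds 75.6% G and C with 3 matches, the second 79.2% with 6. A GC box on either strand was found in 32 of the 48 windows (66.7%), in 69.8% of those of all genes with a mean of at least 1 FPKM, and in 42.3% of all 27305 windows of that length. The CCAAT box (CCAAT or ATTGG) was found in 33.3%, 35.1% and 33.0%. A match describes letters and not a bound site.

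Each gene was then compared with its 100 nearest genes in level, GC content and length, and their median fold was subtracted. After that, 4 enzymes (6.56%) were at least 2-fold lower, beside 8.35% of all genes, and 2 (3.28%) were at least 2-fold higher, beside 8.11%. The 4 lower ones were MAN2A1 (-2.58), GALNT3 (-1.57), ST3GAL3 (-1.34) and B4GALT1 (-1.01), all of them also lower before. For ST3GAL3 the most abundant transcript was a fragment of 592 bases, which set its neighbours. B3GALT6 (1.58) was higher before and after, whereas MGAT5 moved from 0.31 to 1.26. MGAT1 (0.83), B4GALT7 (0.46) and B3GNT8 (0.69) stayed above 0. GALNT1 (-0.61), GALNT7 (-0.26), B4GALT5 (-0.87), FUT8 (-0.26) and MAN1A2 (-0.08) lay within 2-fold of genes like them. The median over the enzymes was then -0.24, with 44 of 61 below 0, beside 0.0013 over all genes.

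**Figure D4:**
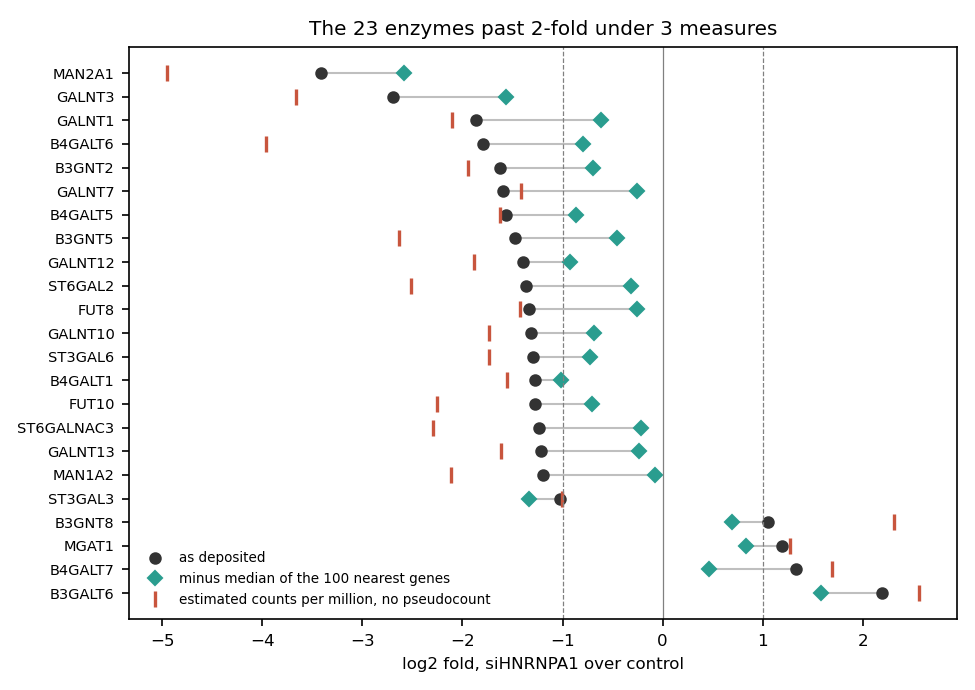
Log2 fold of the 23 enzymes past 2-fold as deposited (circles), less the median fold of 100 genes nearest in level, GC content and length (diamonds) and from the estimated counts, scaled to equal library totals (ticks); dashed lines mark 2-fold. MAN2A1, GALNT3, ST3GAL3, B4GALT1 and B3GALT6 remain past 2-fold after subtraction, and all 23 have the same sign in counts.

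Estimated counts gave the same sign as FPKM for all 23 enzymes past 2-fold. Signs differed for 5 enzymes within 2-fold: B3GALT5, FUT2, GALNT16, MAN2B1 and ST6GAL1. The exact 95% interval of the count ratio included 0 on the log2 scale for 7 of the 61. With estimated counts scaled to equal totals and a pseudocount of 1, 24 enzymes (39.3%) were at least 2-fold lower, beside 24.7% of all genes. At least 2-fold higher were 5 (8.20%), beside 14.5%. In GENCODE 29, 9 of the enzyme genes share exons with another gene on the same strand, among them the lower genes GALNT10, ST3GAL3, ST3GAL6 and FUT10, and 29 with a gene on the other strand. Whether counting used the strand is not given in the sources used here, so reads of such genes may be split with their neighbours.

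The transcripts that make up a gene also differed between the libraries. Among the 15 enzymes that had several transcripts and reached 5 FPKM in each library, 8 had a transcript whose share of the gene's FPKM differed by at least 20 percentage points. That is 53.3%, beside 40.6% of the 5715 genes compared in the same way, and the median largest difference was 20.3 points against 15.4 points. By shares of estimated counts there were 5 such enzymes of the 15 (B4GALT2, MGAT4B, ST3GAL4, ST6GAL1 and ST6GALNAC6). That is a smaller share than the 36.3% of all genes. Shares of transcripts that overlap closely are estimates, and counting intervals do not cover that uncertainty.

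ST6GAL1 had the largest difference. ST6GAL1-201 took 52.2% of its level in the control library and 90.5% in the siHNRNPA1 library. ST3GAL4-217 took 7.54% and 45.1%. GALNT7, lower as a gene, had GALNT7-206 at 40.1% in the control and 5.52% in the siHNRNPA1 library, and GALNT7-201 took 57.3% and 88.8%. For B4GALT2, B4GALT2-204 took 15.4% and 43.2% and B4GALT2-203 took 55.9% and 33.6%.

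B4GALT7, higher as a gene, had its transcript B4GALT7-201 at 53.9% in the control and 78.6% in the siHNRNPA1 library. B4GALT7-204, annotated as a target of nonsense-mediated decay, the pathway that degrades transcripts with early stop codons, took 24.8% and 8.20%. B4GALT4-209 took 14.0% and 35.4%. ST6GALNAC6-202 took 20.8% in the control library and was listed at 0 in the siHNRNPA1 library, with ST6GALNAC6-204 at 58.3% and 78.8%. MGAT4B-201 took 46.3% and 26.0%. B3GALT5, below the 5 FPKM limit, had B3GALT5-206 at 80.5% of its FPKM in the control library and at 0 in the siHNRNPA1 library. B3GALT5-203, a transcript of 13170 bases, took 18.6% in the control and 100% in the siHNRNPA1 library. Of the estimated counts in the control library, B3GALT5-206 held 46.0% and B3GALT5-203 held 53.5%. This is the gene whose FPKM and counts point in opposite directions.

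**Figure D5:**
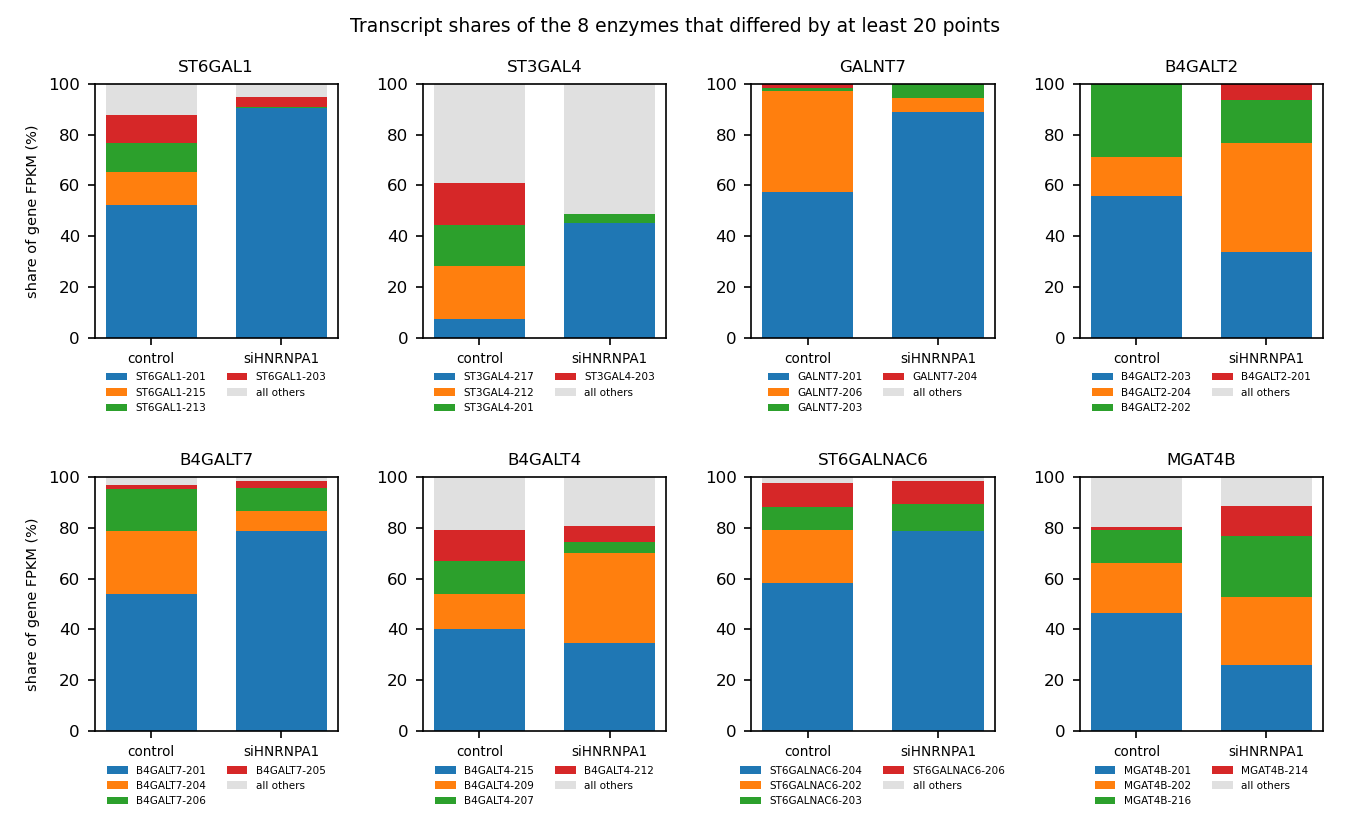
Share (%) of each gene's FPKM by transcript in the control and the siHNRNPA1 library, for the 8 enzymes with a difference of at least 20 percentage points. ST6GAL1-201 takes 52.2% in the control and 90.5% in the siHNRNPA1 library, and GALNT7-206 takes 40.1% and 5.52%.

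Genes that supply the same pathway were taken from lists of their own, with all genes (21.9% at least 2-fold lower, 12.4% at least 2-fold higher, median -0.13) as background. Of 12 oligosaccharyltransferase genes, whose complex attaches the N-glycan precursor, 2 were at least 2-fold lower, the catalytic subunit STT3B (-1.42) and MAGT1 (-1.23), and 1 was higher, TMEM258 (1.52), with KRTCAP2 at 0.94. The list's median was 0.0096. Of 19 genes that build the lipid-linked precursor, 2 were lower, ALG13 (-1.82) and ALG11 (-1.08), and 6 higher, led by the mannosyltransferase ALG1 (1.98) and the dolichol kinase DOLK (1.87), with a median of 0.53. Of 12 genes for endoplasmic reticulum glucosidases, folding sensors, chaperones and cargo receptors, 5 were lower and none higher, with a median of -0.38. The 5 were LMAN1, MCFD2, EDEM1, CANX and EDEM3, and none of them encodes a glucosidase. The cargo receptor LMAN1 (-2.32) and its partner MCFD2 (-1.26) were the lowest, and the glucosidase II subunit PRKCSH (0.81) and the chaperone CALR (0.59) the highest.

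Transferases draw on nucleotide sugars, which are made in the cytosol or nucleus and carried into the Golgi. Of 11 nucleotide sugar transporters, none lay past 2-fold on the lower side and 3 did on the higher, among them the UDP-galactose transporter SLC35A2 (1.48) and SLC35B2 (1.65), which carries the sulfate donor, while SLC35A5 (-0.66) and SLC35B4 (-0.55) were the lowest. Of 23 genes of nucleotide sugar synthesis, 4 were lower and 6 higher, and the medians of both lists were 0.17 and -0.34. GMPPB, which makes GDP-mannose, had 1.80, whereas GFPT1 and UAP1, on the route to UDP-N-acetylglucosamine, had -1.44 each. Of 22 other O-glycan genes, 6 were lower and 2 higher, with C1GALT1, the core 1 synthase that extends the GALNT product, at -1.74, GCNT2 at -1.73, the Notch-modifying LFNG at 2.0 and B4GALNT4 at 1.16. The median was -0.10. Of 5 glycosaminoglycan linker genes outside the families described here, 3 were lower and 1 higher, with a median of -1.11.

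Tethers and golgins hold the Golgi stack and capture vesicles that carry the enzymes. Their list also holds other Golgi proteins, such as GOLPH3, VPS13B, ATP6V0A2 and TMEM165. It has 26 gene identifiers (25 gene symbols, with COG8 under 2 identifiers, both within 2-fold). Of the 26, 11 lay past 2-fold on the lower side and 0 on the higher, with a median of -0.87. GOLGA4 (-2.32) and USO1 (-2.06) were the lowest, and GORASP1 (0.84) and COG4 (0.82) the highest. After subtraction of the nearest genes, 1 of the 26 was at least 2-fold lower and the median was 0.0060. For the lipid-linked precursor list the counts were then 1 lower and 4 higher, for nucleotide sugar synthesis 1 and 3, and for the other O-glycan genes 1 and 2. In the oligosaccharyltransferase, glucosidase and sensor, transporter and linker lists, 0 genes were then past 2-fold in either direction.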

How the data were processed

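RNA-seq of 2 libraries of H9 cells, 1 per condition, was used. The authors deposited a table of transcripts with estimated counts, TPM and FPKM per library. Estimated counts are whole numbers: of those from 1 to 3, 90.3% (siHNRNPA1) and 90.5% (control) equal the value implied by FPKM and length rounded up, within 0.05. For aligner and quantifier, nothing is stated in the labels or headers. A mouse assembly appears in the submitters' processing notes, but the table holds human gene identifiers, with gene starts and ends identical to GENCODE 29 (GRCh38) for 52 of the 81 genes. Another 6 columns of per-sample values match no labelled sample and were not used.

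FPKM was summed per gene, and log2 ratios were taken after adding 1 FPKM, for genes with a mean of at least 1 FPKM. Counting intervals are exact Poisson for levels and Clopper-Pearson for ratios (95%, SciPy 1.17.1). Neighbours were the 100 genes nearest in level, GC content and length. Named genes were those past 2-fold, the members nearest the limits, members of each family by value or range, transcripts past 20 points, and the 2 lowest and 2 highest of each pathway list. The value of 1 such gene is not reported here. Scripts were tested on simulated data. The gene families, pathway lists and comparisons were chosen with earlier results of these data known. The alternatives tried were pseudocounts, filters, TPM, median ratio scaling, estimated counts, neighbour subtraction and the omission of lysosomal and cytosolic enzymes.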

Additional observations from a re-analysis of the deposited data

How the results depend on the processing

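With 1 library per condition no result has a replicate check. The widest counting interval of a count ratio among the 61 enzymes was that of B3GNT8, from 1.64 to 3.04 on the log2 scale. The count of enzymes at least 2-fold lower was 19. It was 5 with a pseudocount of 5 FPKM (8.20% of the enzymes, beside 7.94% of all genes). With a mean of at least 5 FPKM it was 7 of 25 (28%, beside 18.8%). After subtraction of nearest genes it was 4 (6.56%, beside 8.35%). Of the 27 enzymes without exons shared with another gene, an alternative chosen after seeing the data, 9 were lower (33.3%, beside 21.9%). The count at least 2-fold higher was 4. It was 2 after the subtraction (3.28%, beside 8.11% of all genes) and 2 without shared exons (7.41%, beside 12.4%). The other alternatives gave 18 to 24 lower (24.7 to 39.3% of the enzymes), beside 13.3 to 28% of all genes. They gave 3 to 5 higher (4.92 to 12%), beside 7.05 to 16%. The median log2 fold of -0.37 was -0.55 with a pseudocount of 0.1 FPKM, -0.21 with 5 FPKM, -0.58 in TPM, -0.19 with no filter, -0.0358 with a mean of at least 5 FPKM and -0.53 without shared exons. The median over all genes was -0.13 as deposited, -0.28 in TPM and 0.0005 under median ratio scaling. It was -0.15 with a pseudocount of 0.1 FPKM, -0.08 with 5 FPKM, 0 with no filter and 0.068 with a mean of at least 5 FPKM. Of the 23 enzymes past 2-fold, none changed sign in estimated counts or after subtraction. A pseudocount cannot change a sign. TPM and median ratio scaling rescale each library as a whole, by too little to turn a 2-fold difference. Those settings therefore could not test the sign. With a pseudocount of 5 FPKM 8 stayed past 2-fold. Under median ratio scaling and in estimated counts 22 did, all but ST3GAL3. The 8 enzymes with a transcript share difference of at least 20 points became 16 of 28 at a minimum of 2 FPKM. At 10 FPKM they were 4 of 10. All genes had 43% and 37.8% in these settings. By counts there were 5 of 15, beside 36.3% of all genes. With a limit of 10 points there were 9 of 15, beside 62.5%. In both of these the share of enzymes was below that of all genes. Family medians changed sign with the scaling for lysosomal and cytosolic enzymes (0.11 by median ratio, 0.0075 in counts), B3GNT (-0.03 in TPM) and B3GALT (1.16 in counts). The sign of 11 enzymes, none past 2-fold, turned in TPM, in counts or under median ratio scaling: B3GALT5, B3GNT9, FUT2, GALNT2, GALNT14, GALNT16, MAN2B1, MGAT2, MGAT5B, ST6GAL1 and ST6GALNAC4. The cause of these differences was not tested. No paired analysis was possible because each condition has 1 library.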
